A study of Mus musculus with 43 samples.

Results

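Crystallins are the proteins that fill the fibre cells of the eye lens and give it its clarity and refractive power. Here, 10 crystallin genes were followed in the retinal transcriptomes of mice with laser-induced choroidal neovascularization (CNV), of 54532 genes in the count table. All 10 were found under their gene symbols and passed the filter on low counts. They are *Cryaa* and *Cryab* (α-crystallins), *Cryba1*, *Cryba2* and *Cryba4* (acidic β-crystallins), *Crybb1*, *Crybb2* and *Crybb3* (basic β-crystallins) and *Crygs* and *Crygc* (γ-crystallins). They were chosen on measured values, because a single library, female SCFA 3 dpl replicate 2, held very high levels of them. The levels in that library are therefore given as a description without a test, and the comparisons below rest on the other 42 libraries. Where a fit with that library is mentioned, this is said.

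The α-crystallins belong to the small heat shock proteins and act as chaperones, which bind partly unfolded proteins and keep them from aggregating. β- and γ-crystallins share a fold and form the dense, stable protein solution of the fibre cells, which lose their nuclei and organelles as they mature. *Cryab* is also used in muscle, heart, brain and retinal glia, whereas *Cryaa* and the γ-crystallins are known mainly from the lens. Crystallin transcripts are nevertheless found in retinal RNA, where injury of the retina has been linked to their levels. A retina removed from the eye lies next to the lens, so that lens genes that are not crystallins serve as a separate readout of lens RNA.

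Each library was a pool of 2 laser-treated retinas from different C57BL/6J mice of the same group, which were 9 weeks old at the laser lesion. Females and males received SCFA in the drinking water (67.5 mM sodium acetate, 40 mM sodium propionate and 25 mM sodium butyrate, as the labels state; their weights per volume for the last 2 salts do not match these concentrations) from before the lesion until collection, or no SCFA (control), and retinas were collected 3, 7 or 14 days after the laser lesion (days post laser, dpl). All groups carried the laser lesion, so there was no retina without a lesion to compare with. The 43 libraries form 12 groups, with 3, 3 and 3 female control libraries at 3, 7 and 14 dpl, 5, 4 and 4 female SCFA libraries, 4, 3 and 3 male control libraries and 3, 5 and 3 male SCFA libraries. Counts per library ran from 14826957 to 21507527, and expression is given in CPM, which relates a gene's count to the total of its library, with totals scaled by TMM.

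Some facts on the libraries come before the results. The groups were taken from the sample titles, since the separate treatment entry reads control for all samples, also those titled SCFA. Female SCFA 3 dpl replicate 2 stands apart by its lens transcripts. Female control 7 dpl replicate 2 held Y-linked transcripts against its label (*Ddx3y* at 15.2 CPM, at 0 in the other 21 female libraries). Some results at 7 dpl in females are therefore also given without it. The others keep it as a female control, as do the fitted values between males and females. The columns of the count table form 2 runs of groups, of 31 and 12 libraries, and values within each run are given where they bear on a result. The rod gene *Gnat1*, which codes for the transducin of rod photoreceptors, was abundant in all libraries, between 11962 and 24056 CPM in the 42 libraries and at 15142 CPM in the library that stands apart.

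In female SCFA 3 dpl replicate 2, the 10 crystallins took 20.9% of all counts (95% Wilson interval 20.8 to 20.9, counting error only). In the other 42 libraries they took between 0.00385% and 0.0876%, with a median of 0.0113%. *Cryaa* had the highest CPM of that library, at 82589 CPM. *Crybb2* followed at 56114 CPM, *Cryba1* at 32459 CPM, *Crygs* at 28374 CPM and *Crygc* at 27973 CPM. *Cryab* was at 19895 CPM, *Cryba4* at 15032 CPM, *Cryba2* at 14185 CPM, *Crybb3* at 12307 CPM and *Crybb1* at 8386 CPM. All 10 were among the 20 transcripts with the highest CPM there.

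The distance to the nearest library differed between the members. *Crygc* was 557-fold above the highest of the other 42 libraries, *Cryba4* 491-fold, *Cryaa* 314-fold and *Crybb2* 309-fold. The smallest ratio was that of *Cryab*, at 165-fold. Other genes of the lens fibre were also far above the other libraries. *Crygb* (30780 CPM) and *Crygd* (21744 CPM), both γ-crystallins that are no members, together with *Cryga*, *Cryge* and *Crygf*, took 4.04% of the counts. All 13 lens genes that are not crystallins were above their levels in every other library, among them *Bfsp1* (7291 CPM) and *Bfsp2* (2611 CPM), which build the beaded filaments of the fibre cell, *Mip* (3539 CPM), the lens water channel, and *Lim2* (3230 CPM), a fibre membrane protein. *Sox1* and *Pitx3*, transcription factors of the lens, were at 33.0 and 22.8 CPM against at most 0.40 and 0.24 CPM elsewhere.

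Levels can be compared between genes only per length, which was done with CPM per kilobase of annotated exon. The length joins all annotated exons of a gene, from 786 bases for *Crygc* to 2333 for *Crybb3*, so ranks by CPM per kilobase depend on it. By this measure *Cryaa* led among the 10 members in female SCFA 3 dpl replicate 2 (39783), followed by *Crygc* (35589), *Crygs* (32427) and *Crybb2* (27890). *Crybb3* was lowest of the members, at 5275 CPM per kilobase. *Crygb*, which is no member, was above all of them, at 48549 CPM per kilobase. In the median of the other 42 libraries, the order was another one, with *Cryab* first at 43.3 CPM per kilobase, followed by *Cryaa* at 7.04 and *Crybb2* at 4.66. *Cryba4*, *Crybb1* and *Cryba2* lay close together, at 2.11, 2.10 and 2.00 CPM per kilobase, and their ranges over libraries overlapped.

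Markers of other eye tissues were also read in female SCFA 3 dpl replicate 2. All 6 genes of the pigment epithelium were above every other library, with a summed level of 1841 CPM against 59.8 to 834 CPM, and *Rpe65*, the retinoid isomerase of these cells, was at 166 CPM. Of 5 pigment cell genes 4 were above all others. Of 4 corneal genes only *Aldh3a1* was (23.5 CPM), and their summed level of 35.1 CPM lay within that of the other libraries (0.278 to 38.1 CPM). The part of these tissues in the crystallin levels was not tested.

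Promoters of 3 members are shown because they hold TGCTGAC, the core bound by large Maf proteins, which are lens transcription factors, and because *Cryba4* and *Crybb1* are neighbours. RefSeq (GRCm38.p6) gave a promoter for 9 of the 10 members, all but *Cryab*. The 250 bases before the RefSeq start are printed 5′ to 3′ on the strand of the gene, and capitals mark TGCTGAC and TATAAA, the TATA box. In *Cryaa*, *Crygc* and *Crygs*, GENCODE places the start of the gene further upstream, so that 124, 157 and 167 bases of these windows lie inside the gene, and they are not printed. The last 5 bases of the *Crybb1* window also lie inside its GENCODE gene. The *Cryba1* promoter lies at chr11:77725294-77725543 (minus strand), that of *Cryba4* at chr5:112252519-112252768 (minus strand) and that of *Crybb1* at chr5:112255570-112255819 (plus strand).
Cryba1: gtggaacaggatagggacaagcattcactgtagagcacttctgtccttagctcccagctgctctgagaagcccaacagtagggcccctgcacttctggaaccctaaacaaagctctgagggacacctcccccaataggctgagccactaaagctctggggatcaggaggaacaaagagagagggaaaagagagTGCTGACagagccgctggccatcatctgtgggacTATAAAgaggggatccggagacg
Cryba4: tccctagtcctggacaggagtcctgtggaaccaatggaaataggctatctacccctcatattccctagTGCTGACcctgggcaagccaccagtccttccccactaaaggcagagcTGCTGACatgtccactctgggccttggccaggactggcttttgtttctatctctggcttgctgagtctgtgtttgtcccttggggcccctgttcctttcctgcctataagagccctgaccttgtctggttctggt
Crybb1: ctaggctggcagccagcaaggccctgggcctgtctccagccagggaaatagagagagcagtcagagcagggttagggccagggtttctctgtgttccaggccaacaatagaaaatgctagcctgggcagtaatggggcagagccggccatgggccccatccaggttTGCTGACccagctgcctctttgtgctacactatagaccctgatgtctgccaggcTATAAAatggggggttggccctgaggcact

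TGCTGAC was found, on either strand, in 4 of these 9 promoters and in 3.81% of 32851 promoters of the same length. It began 108 bases before the RefSeq start in *Cryaa*, which is inside the GENCODE gene, 57 in *Cryba1*, 84 in *Crybb1*, and 182 and 135 in *Cryba4*. TATAAA was found in 3 of the 9 (*Cryba1*, *Crybb1* and *Crygs*) and in 12.4% of all. The heat shock element GAANNTTC was in none of the 9 and in 6.69% of all. These matches are a description of the letters and no evidence of binding. *Maf*, which codes for a protein that binds such cores, was at 142 CPM in female SCFA 3 dpl replicate 2 and at most at 37.8 CPM in the other libraries.

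By position, *Cryba4* and *Crybb1* are neighbours on chromosome 5 of GRCm38, 3296 bases apart and on opposite strands, and *Crybb2* and *Crybb3* lie 5721 bases apart on the same chromosome. *Crygc* is on chromosome 1 (65071525 to 65073689, minus strand). Of the windows of 100 bases in the transcripts of *Crygc*, 15.5% also occur in *Crygb*, so that reads of these may be split between them. No other member shared such a window with the crystallins compared. Exons of *Cryab* (chromosome 9, 50751325 to 50756636) overlap those of *Hspb2* on the opposite strand, and exons of *Cryaa* (chromosome 17, 31677807 to 31681733) overlap an antisense gene. How counts were assigned to strands is not given in the sources used here, so reads from these pairs cannot be told apart.

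Outside female SCFA 3 dpl replicate 2, the level of 9 of the 10 members was low and uneven. *Cryaa* ran from 0.0567 to 263 CPM with a median of 14.6 CPM, *Crybb2* from 0 to 181 CPM (median 9.38) and *Crygc* from 0 to 50.3 CPM (median 1.71). *Crygc* had 3 counts or fewer in 10 libraries and *Cryba2* in 7, which is at or under 0.139 to 0.202 CPM, the limit for a count of 0. *Cryab* was present in every library, between 34.5 and 121 CPM with a median of 64.1 CPM. Thus the highest library held 3.50 times the lowest level for *Cryab*, against 36.3 times for *Crybb3* and 56.0 times for *Crybb1*.

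Libraries of the same group differed more in the other 9 members than in nearly all genes. The biological coefficient of variation, which is the relative spread between libraries of a group beyond counting error, was between 0.716 (*Crybb1*) and 1.47 (*Crygc*) for these 9, and 0.231 for *Cryab*. Its median over the 18173 genes tested was 0.195. The 9 members lay between the 98.6th and the 99.95th percentile of all genes tested, and *Cryab* at the 61.6th. In the log2 levels of *Cryaa*, the 12 groups accounted for 30.7% of the variance across libraries, near the median of all genes tested (34.8%). For *Cryab* they accounted for 56.0%. With 12 groups for 42 libraries, group means take up part of the variance even where groups do not differ. These shares are therefore read only against the median of all genes tested.

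**Figure D1:**
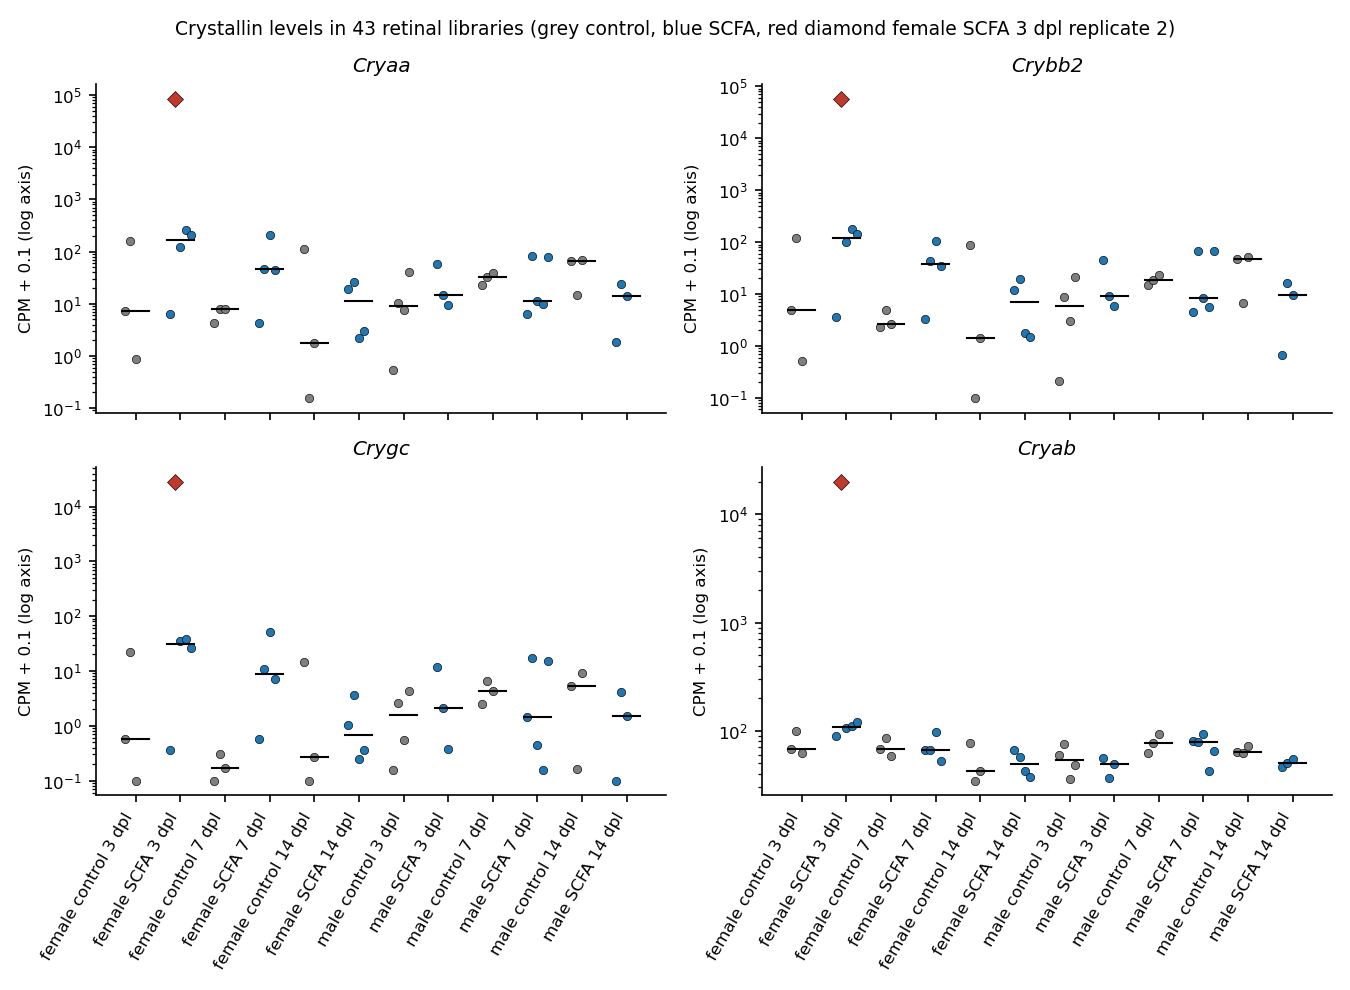
Levels of *Cryaa*, *Crybb2*, *Crygc* and *Cryab* as CPM + 0.1 on a log axis for each library (points) in the 12 groups, with a line at the median of each group without female SCFA 3 dpl replicate 2 (red diamond). Without that library, points of 1 group spread over up to 3 powers of 10 for the first 3 genes, whereas *Cryab* stays between 34.5 and 121 CPM in the 42 libraries.

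At 3 dpl in females, *Cryaa* was at 7.16, 159 and 0.791 CPM in the controls. It was at 6.28, 121, 263 and 206 CPM in SCFA replicates 1, 3, 4 and 5. A control and an SCFA library were therefore at similar low levels, and the groups overlapped. In males at 3 dpl, *Cryaa* was at 0.441, 10.1, 7.61 and 40.3 CPM in controls and at 57.5, 14.7 and 9.41 CPM with SCFA, again with overlap. None of the 10 members was free of overlap at 3 dpl, as were 4.92% (SCFA higher) and 4.68% (SCFA lower) of all genes in females and 4.78% and 3.81% in males.

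At 7 dpl, the female controls were close to each other, at 4.09, 7.68 and 7.85 CPM of *Cryaa*. The female SCFA libraries were at 4.17, 46.5, 205 and 44.1 CPM, so that 3 of them were above all controls and 1 was among them. In males, *Cryaa* was at 22.9, 31.8 and 38.0 CPM in controls and at 6.20, 82.3, 10.997, 9.62 and 78.1 CPM with SCFA. The 5 male SCFA libraries thus lay on both sides of the controls. In males, no member was free of overlap, as were 9.17% (SCFA higher) and 8.65% (SCFA lower) of all genes.

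At 14 dpl, *Cryaa* in the female controls was at 112, 0.0567 and 1.63 CPM, which span most of the range of the 42 libraries on a log scale. The female SCFA libraries lay within this range, at 19.3, 26.6, 2.06 and 2.95 CPM. Male controls were at 65.9, 14.6 and 69.8 CPM, and male SCFA libraries at 1.73, 23.8 and 13.7 CPM. Here too the groups overlapped. In females at 14 dpl no member was free of overlap, as were 2.1% (SCFA higher) and 1.91% (SCFA lower) of all genes.

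SCFA and control were compared in each sex and day by edgeR (quasi-likelihood test), and p-values were adjusted over all 18173 genes (Benjamini-Hochberg). To be called, a gene needed an adjusted p below 0.1 and a log2 fold change above 1 or below -1. Over the mean of the 6 combinations of sex and day, 0 of the 10 members were called, where 0.55% of all genes were. The log2 fold changes ran from -0.05 for *Cryab* to 1.30 for *Crygc* (SE 0.74, adjusted p = 0.226), with a median of 0.55 against -0.01 for all genes tested. No member was at an unadjusted p under 0.05 there, against 31.7% of all genes, and DESeq2 called none. Of 4 corneal genes, edgeR called 3 as lower with SCFA over this mean, and of 5 pigment cell genes it called none. The part of these tissues in the crystallin values was not tested.

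The count of 0 members called over the mean rests on single libraries. Without female control 14 dpl replicate 1, the control library with 112 CPM of *Cryaa*, 6 members were called as higher with SCFA (0.79% of all genes), and without female control 3 dpl replicate 2, with 159 CPM, 3 were (0.629% of all genes). A fit with female SCFA 3 dpl replicate 2 included called 6 over the mean and 4 in females at 3 dpl (0.544% and 0.308% of all genes), but these counts include the values that chose the members and support nothing. With the lens genes as a covariate, *Crygc* was called over the mean and between males and females (0.572% and 0.055% of all genes). This covariate is the sum of 13 lens genes, with a median of 12.9 CPM over the 42 libraries. *Hsf4*, a lens transcription factor, alone had a median of 8.06 CPM and did not follow *Cryaa* (Pearson's r = -0.006). The covariate is therefore a measure of lens RNA only in part.

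In females at 7 dpl the members were furthest apart between SCFA and control. The difference was largest for *Crygc*, at 0, 0.208 and 0.0665 CPM in controls and at 0.475, 10.7, 50.3 and 6.97 CPM with SCFA. *Cryba2* was at 0.563, 0.571 and 0.0665 CPM in controls and at 0.581, 7.65, 37.9 and 6.38 CPM with SCFA. These 2 were the members whose groups did not overlap, as was the case, with SCFA higher, for 3.93% of all genes. None had all SCFA libraries below the controls, as had 3.29% of all genes.

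The log2 fold changes were 7.40 for *Crygc* (SE 2.44, adjusted p = 0.255), 4.93 for *Cryba2* (SE 1.73, adjusted p = 0.272) and 3.51 for *Cryaa* (SE 1.54, adjusted p = 0.364) by edgeR, and 0 of the 10 members were called (0% of all genes). Those of *Crygc* and *Cryba2* rest on control libraries with 0 to 11 counts, so that their size is uncertain. At an unadjusted p under 0.05 were 9 members, all but *Cryab* (log2 fold change -0.02, SE 0.25), against 11.8% of all genes. These 9 rose and fell together over the same libraries (Pearson's r between 0.89 and 0.99), so they are not 9 separate observations. The median log2 fold change of the members was 3.67, against -0.01 for all genes tested. DESeq2 called *Cryba2* and *Crygc* (lowest adjusted p = 0.0415), where it called 0.217% of the genes it tested.

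Without female control 7 dpl replicate 2, the library that did not match its label, the lowest adjusted p of the members was 0.692 and the log2 fold change of *Cryaa* was 3.65. The lens genes that are not crystallins went the same way in these libraries. Their sum without *Hsf4* was 2.05, 2.44 and 2.59 CPM in the controls and 1.95, 11.5, 32.4 and 9.54 CPM in the SCFA libraries, in the same order of SCFA libraries as *Cryaa*. For markers of other eye tissues, the median log2 fold change was -1.44 for 5 pigment cell genes, of which 4 were at an unadjusted p under 0.05, and -2.66 for 4 corneal genes, of which 3 were. None of them was called, and their part in the crystallin values was not tested. With the lens genes as a covariate in the fit, the log2 fold change of *Cryaa* was 0.72 (SE 0.81) and that of *Crygc* 4.06 (SE 1.35, adjusted p = 0.260). With *Crygb* and *Crygd* as the covariate, these were -0.73 (SE 0.52) and 1.53 (SE 0.62, adjusted p = 0.419). *Crygb* and *Crygd* are crystallins themselves, with profiles close to that of *Cryaa* (r = 0.94 and 0.91). This fit can therefore take out a difference that the crystallins share.

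At 14 dpl in females, the direction turned on 1 library. The log2 fold change of *Cryaa* was -1.56 (SE 1.33), and 0 of the 10 members were called (0% of all genes) or at an unadjusted p under 0.05 (3.7% of all genes). DESeq2 also called none. Without female control 14 dpl replicate 1 it was 3.89 (adjusted p = 0.356), with 0 members called. In a fit of only the libraries that the study compared, 3 SCFA and 2 control libraries without that replicate, it was 4.25 (SE 1.14, adjusted p = 0.0692). That fit called 7 members as higher with SCFA (*Cryaa*, *Cryba1*, *Cryba2*, *Cryba4*, *Crybb1*, *Crybb2* and *Crybb3*), where 3.89% of all genes were called.

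In males at 14 dpl, SCFA libraries had lower fitted levels of all 10 members, with a median log2 fold change of -1.82 against 0.01 for all genes tested. None was called by edgeR (0.347% of all genes) or DESeq2, and none was at an unadjusted p under 0.05 (17.1% of all genes). *Cryaa* was at a log2 fold change of -1.93 (SE 1.47, adjusted p = 0.520). The 6 pigment epithelium genes had a median log2 fold change of -1.13 (-1.61 to -0.64), and 3 of them were at an unadjusted p under 0.05. None was called, and their part in the crystallin values was not tested. A fit of these 6 libraries alone, in which the spread was estimated without the other groups, called 6 members as lower (*Cryaa*, *Cryba1*, *Cryba2*, *Cryba4*, *Crybb2* and *Crybb3*), and 2.18% of all genes. The SE of *Cryaa* was 0.62 there (adjusted p = 0.0548). *Cryab* was at 63.1, 61.9 and 72.4 CPM in the male controls and at 46.4, 50.3 and 54.5 CPM with SCFA, without overlap, as for 17.8% of all genes with SCFA lower. No member had all SCFA libraries above the controls, as had 15.7% of all genes. Its log2 fold change was -0.38 (SE 0.27, adjusted p = 0.489).

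Beside these, the sum of lens genes without *Hsf4* was 6.84, 3.22 and 11.8 CPM in the male controls at 14 dpl and 1.44, 4.55 and 3.31 CPM with SCFA. With all 13 lens genes as a covariate, *Hsf4* among them, the log2 fold change of *Cryaa* was 0.07 (SE 0.82). With *Crygb* and *Crygd* as the covariate it stayed at -1.59 (SE 0.53, adjusted p = 0.141), and *Cryba4* was called as lower (log2 fold change -1.81, SE 0.45, adjusted p = 0.0702), with 0.33% of all genes called. *Crygb* shares reads with *Crygc*, as given above, so this covariate is not separate from *Crygc*. Both genes of the covariate are crystallins, so the fit can also take out a difference that all crystallins share.

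In the other 3 comparisons none of the 10 members was called by edgeR or DESeq2, and none was at an unadjusted p under 0.05. Of all genes, 8.61% were so in females at 3 dpl, 6.88% in males at 3 dpl and 23% in males at 7 dpl. *Cryaa* differed by a log2 fold change of 1.41 (SE 1.35) in females at 3 dpl (0% of all genes called), of 0.90 (SE 1.33) in males at 3 dpl (0%) and of 0.29 (SE 1.27) in males at 7 dpl (1.65%). Without female control 3 dpl replicate 2, the value in females at 3 dpl was 5.21. In males at 7 dpl, a fit of the 6 libraries that the study compared called 1 member, *Cryba1* (log2 fold change 1.66, SE 0.58, adjusted p = 0.0882), among 1.54% of all genes. For markers of other eye tissues in these males, the fit of 42 libraries called 3 of 5 pigment cell genes as lower with SCFA. It also called 1 of 6 genes of the ciliary body and iris as lower, and none of 4 corneal genes. The part of these tissues in the crystallin values was not tested. Whether the SCFA effect differed among the 6 combinations was tested by an F test. No member passed (lowest adjusted p = 0.614, for *Cryba4*), nor did any gene (0%), and 4 members were at an unadjusted p under 0.05, against 7.69% of all genes. That count was 0 with a robust fit or with the lens genes as a covariate, and 9 without the filter on low counts. The share of all genes was not computed for these settings, so the change in count cannot be read as one of the members.

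**Figure D2:**
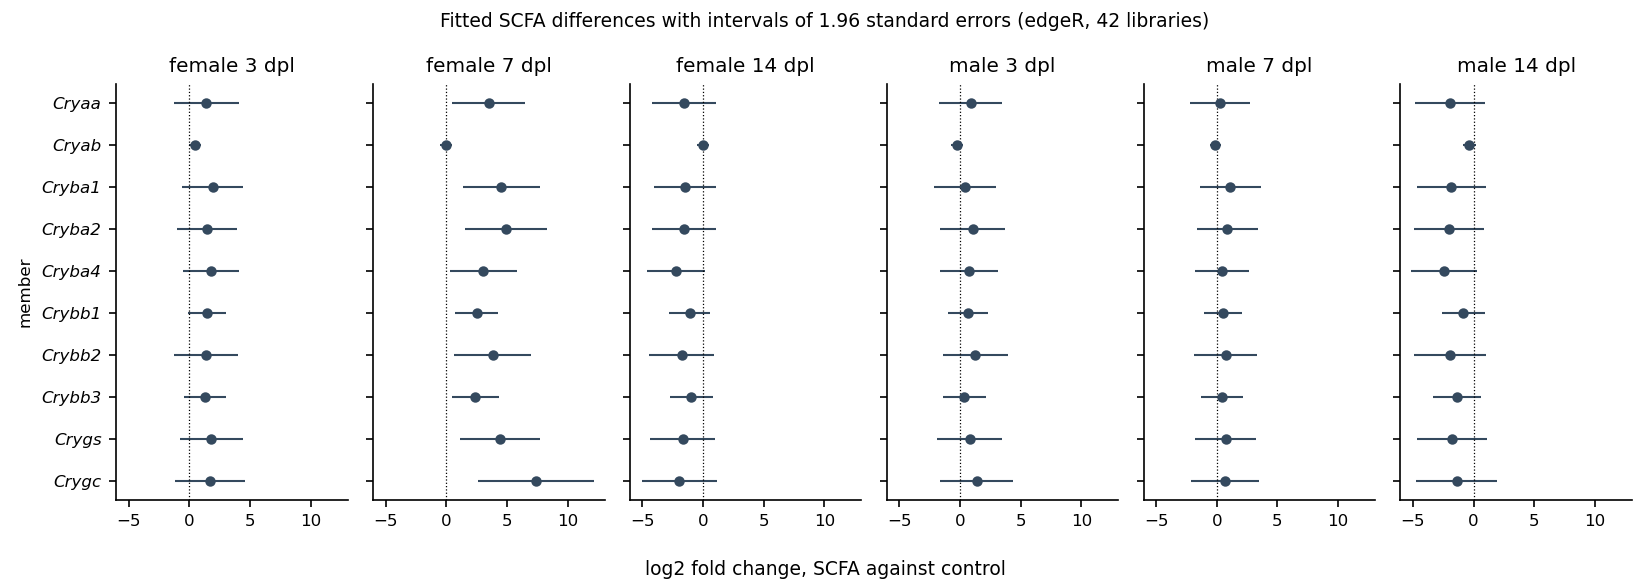
Fitted log2 fold changes of the 10 members, SCFA against control, in each sex and day (points, with lines for 95% intervals, edgeR, 42 libraries). In females at 7 dpl, 9 members lie above 0 with intervals that leave it out, whereas at 14 dpl the points lie below 0 in both sexes with intervals that include it, before adjustment over all genes. The members rise and fall together over the libraries, so the points of a panel are not separate observations.

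Days after the lesion were compared over both sexes and treatments. None of the 10 members was called from 3 to 7 dpl or from 7 to 14 dpl (0% of all genes in both), and DESeq2 called none. From 3 to 7 dpl, the median log2 fold change of the members was -0.69, with none at an unadjusted p under 0.05 (6.12% of all genes). From 7 to 14 dpl it was -0.19, with *Cryab* as the single member at an unadjusted p under 0.05 (8.51% of all genes). *Cryaa* was at a median of 12.4 CPM at 3 dpl, 22.9 CPM at 7 dpl and 14.6 CPM at 14 dpl, within ranges that overlapped over most of their width.

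*Cryab* was at a median of 65.5 CPM at 3 dpl (36.0 to 121, n = 14), 68.3 CPM at 7 dpl (41.9 to 96.7, n = 15) and 54.5 CPM at 14 dpl (34.5 to 76.7, n = 13). Its log2 fold change from 7 to 14 dpl was -0.42 (SE 0.13, adjusted p = 0.530), too small for the fold threshold. In the first run of columns the median of *Cryab* was 67.5 CPM (42.5 to 105, 30 libraries) and in the second 45.3 CPM (34.5 to 121, 12 libraries). With the run as a covariate, its log2 fold change from 7 to 14 dpl was -0.39 (adjusted p = 0.195). Males and females did not pass the test in any member (0.066% of all genes called, 11.3% at an unadjusted p under 0.05, where no member was), with log2 fold changes from -0.56 to 0.04. A lower level in such bulk RNA can come from fewer cells of a type or from less RNA per cell, which cannot be told apart.

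Of the related genes that are no members, 5 of 6 other γ-crystallins passed the filter on low counts, and none was called in any of the 10 comparisons. The same held for 5 of 6 small heat shock proteins, 8 of 11 lens transcription factors, 8 of 9 other genes named crystallin and 8 of 13 lens genes that are not crystallins. *Lgsn*, whose product lengsin is no α-, β- or γ-crystallin, is in both of the last lists. In females at 7 dpl, the median log2 fold change was 5.73 for the 5 γ-crystallins tested and 2.29 for the 8 lens genes, but -0.33 for the small heat shock proteins and 0.03 for the other genes named crystallin, several of which are enzymes. *Crym*, a thyroid hormone-binding protein of this last list, was at 53.2 to 177 CPM in all 42 libraries. *Hspb1*, a small heat shock protein, was at 5.30 to 14.4 CPM there, and at 1465 CPM in female SCFA 3 dpl replicate 2.

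Members rose and fell together from library to library. Between the 9 members other than *Cryab*, Pearson's r of log2(CPM + 0.1) over the 42 libraries was between 0.89 and 0.99 (36 pairs, median 0.94). *Cryaa* and *Crybb2* were the closest pair, at 0.99. The r of *Cryab* with the other 9 was between 0.54 and 0.73. These values are a description, since the members share libraries. Counts of members in any comparison are for the same reason not counts of separate observations.

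Whether the members followed lens genes that are not crystallins was tested over the 42 libraries. The lens measure was the summed CPM of 13 genes, of which *Hsf4*, a lens transcription factor, was present in every library (5.01 to 12.5 CPM). *Hsf4* was a large part of this sum (median 8.06 CPM, against 12.9 CPM for the sum) and did not follow *Cryaa* (r = -0.006). All 10 members had an r past the threshold, from 0.67 for *Cryab* to 0.90 for *Crybb3*. Each had the smallest p that the 100000 permutations can give, 1e-05, also after adjustment over the 10 members. The share of all genes that would pass this test was not computed, so the count of 10 cannot be read as particular to crystallins. Spearman's rank correlation was between 0.61 for *Cryab* (permutation p = 2e-05) and 0.88 for *Crygs*. For *Cryaa*, r was 0.82 and the rank correlation 0.87 (permutation p = 1e-05 for both, also 1.11e-05 for the rank correlation after adjustment).

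Without the 2 libraries farthest from the median of the lens measure, r was between 0.62 for *Cryab* and 0.88 for *Cryba4*. Within the groups, as deviations from group means permuted within groups, r was between 0.53 for *Cryab* and 0.89 for *Crygc*, and all 10 passed (highest adjusted permutation p = 0.00264). All 10 also passed within the first run of columns (30 libraries, r from 0.58 to 0.88) and within the second (12 libraries, r from 0.82 to 0.95). Thus, the relation held among libraries of the same sex, day and treatment. Both measures come from the same libraries and share their depth and scaling.

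**Figure D3:**
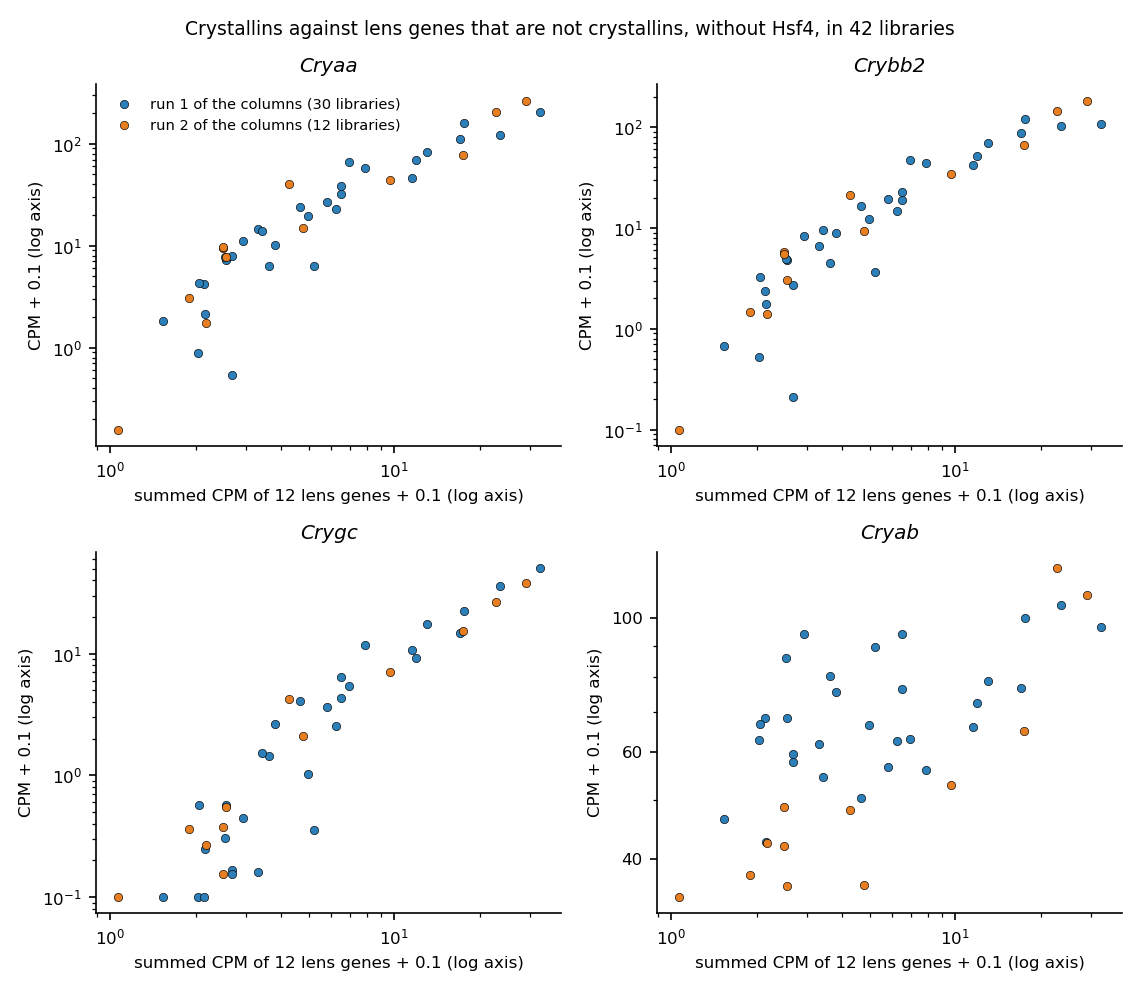
*Cryaa*, *Crybb2*, *Crygc* and *Cryab* (CPM + 0.1) against the summed CPM + 0.1 of 12 lens genes that are not crystallins, without *Hsf4*, in 42 libraries (points, by run of columns), on log axes. The first 3 rise with the lens genes over the whole range in both runs, whereas *Cryab* stays between 34.5 and 121 CPM, with its highest levels at high levels of the lens genes.

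Genes outside the members with the most similar profile were sought among all genes tested, by Pearson's r of log2(CPM + 0.1) over the 42 libraries. For *Cryaa* these were *Crygb* (0.94), *Crygd* (0.91), *Lgsn* (0.89), *Crygf* (0.83) and *Lim2* (0.83). *Lgsn*, a lens protein of the glutamine synthetase family, was at a median of 0.581 CPM, and *Lim2* at 0.265 CPM. *Crybb2* and *Crygs* were also closest to *Crygb*, *Crygd* and *Lgsn* (r between 0.91 and 0.97). *Cryab* had another set, with *Gsta4* (0.79), *Rpl10* (0.79), *Mt1* (0.78), *Tmem14a* (0.78) and *Prdx6* (0.77). Among these are a glutathione transferase, a metallothionein and a peroxiredoxin, which act against oxidative and metal stress. The median r over all genes tested was between -0.02 and 0.00 for these 4 members. Over the 6 genes of the pigment epithelium, r with *Cryaa* was between -0.05 and 0.24. It was between 0.02 and 0.17 over 5 pigment cell genes, between -0.03 and 0.07 over 4 corneal genes, between -0.03 and 0.10 over 5 genes of Müller glia and between -0.25 and 0.22 over 7 genes of gliosis. *Cryab* was closer to several of these lists, with a median r of 0.56 for the pigment epithelium and 0.51 for pigment cells. It was 0.33 for the corneal genes and 0.31 for Müller glia, where r ran from -0.20 to 0.57. Lists of other kinds had medians as high, with 0.51 for small heat shock proteins, 0.39 for microglia and 0.39 for red blood cells. These values are descriptions without a test.

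On the scale of female SCFA 3 dpl replicate 2, the 13 lens genes in the other libraries amounted to 0.0279% to 0.151% (median 0.0514%). Without *Hsf4* this was 0.00384% to 0.129% (median 0.0174%). By the 5 γ-crystallins that are no members it was 0% to 0.243% (median 0.00717%).

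Proportions between the members were compared with that library through the slope of each gene on *Cryaa* over the 42 libraries. *Crybb2* rose by 68.7 CPM for each 100 CPM of *Cryaa* (SE 1.90), with 67.9 in female SCFA 3 dpl replicate 2. *Cryab* rose by 23.6 CPM (SE 3.93, between 21.7 and 25.5 when each library was left out), with 24.1 in that library, above a level of 56.4 CPM (SE 2.99) at which the line met 0 CPM of *Cryaa*. For *Crybb1*, *Cryba2*, *Cryba1*, *Crybb3* and *Crygs*, the slope was between 0.742 and 0.859 of the ratio in that library.

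Lower proportions were found for others. *Crygc* rose by 17.4 CPM for each 100 CPM of *Cryaa* (SE 1.06) against 33.9 in female SCFA 3 dpl replicate 2, and *Cryba4* by 10.2 CPM (SE 0.479) against 18.2. Among lens genes that are not crystallins, *Mip* rose by 0.507 CPM (SE 0.0683) against 4.28, a slope of 0.118 of the ratio, and *Lgsn* by 3.09 CPM (SE 0.166) against 7.80. *Grifin*, a galectin-related lens protein, rose by 1.27 CPM (SE 0.10) against 1.29. The lens transcripts of the 42 libraries were therefore not in the proportions of that library for every gene. These slopes rest mostly on the libraries with the highest *Cryaa*, and the ratio comes from 1 library with no replicate.

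**Figure D4:**
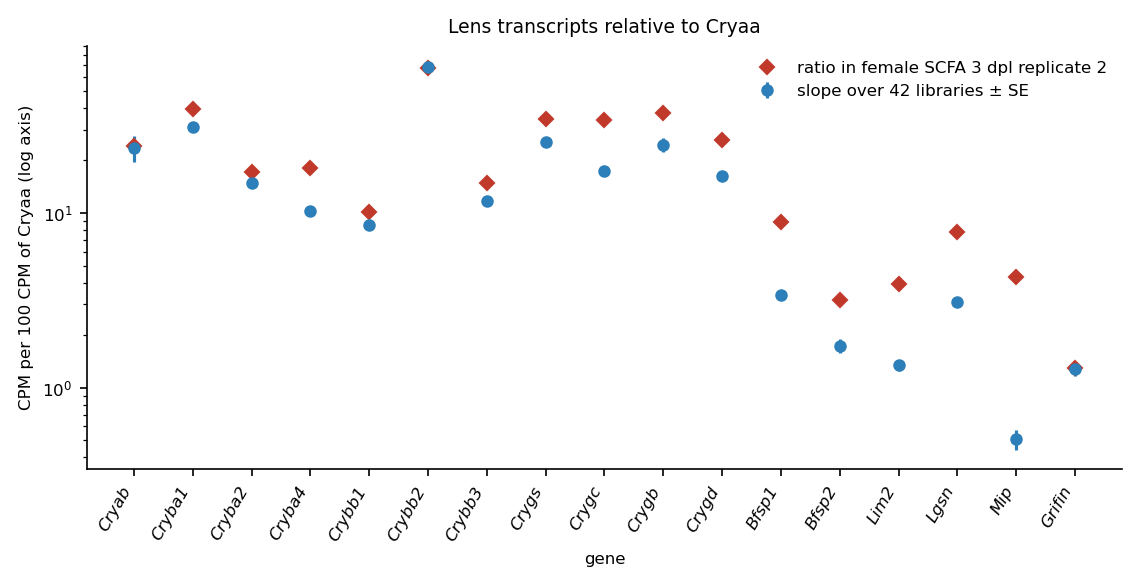
CPM per 100 CPM of *Cryaa* (log axis) for 9 members and 8 other lens transcripts, as the slope over 42 libraries (blue points, with SE) and as the ratio in female SCFA 3 dpl replicate 2 (red diamonds). *Cryab*, *Crybb2* and *Grifin* coincide, whereas *Crygc*, *Cryba4* and *Mip* lie below the diamonds.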

How the data were processed

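RNA of 43 retinal libraries was measured by sequencing. The authors deposited raw read counts per gene, without normalization; their processing notes name mm10 and DESeq2, and the aligner, annotation and strand setting are not given in the sources used here. Totals per library were 14826957 to 21507527 counts (median 17683615). Of 54532 gene identifiers, 54409 were in GENCODE M21 (GRCm38), which gave names, positions and exon lengths.

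The members and all gene lists were chosen with earlier results of these data known. Genes with low counts were removed by filterByExpr, libraries scaled by TMM, and 42 libraries fitted as 12 groups with edgeR 4.0.16 (quasi-likelihood test, R 4.3.3), leaving out female SCFA 3 dpl replicate 2. The study's own comparisons of 2 to 3 libraries per group were an alternative, as were DESeq2 1.42.0, RLE size factors, other filters and thresholds, a robust fit, covariates (replicate block, run of columns, lens genes), and leaving out each library. Of these, *Crygb* and *Crygd* as a covariate and the lens genes without *Hsf4* were chosen after seeing the data. Standard errors are the log2 fold change divided by the square root of F. Relations were tested by two-sided permutation (100000 resamples, scipy 1.17.1, Python 3.11.15) with Benjamini-Hochberg adjustment over the 10 members. Named genes were, for *Cryaa*, *Crybb2*, *Cryab* and *Crygs*, the 5 non-members with the highest r; lists are given as counts with a few examples. *Gnat1*, *Maf*, *Sox1*, *Pitx3*, *Grifin*, *Rpe65*, *Crym* and *Hspb1* were named after their values were seen. Libraries were labelled as separate samples of a group, and p-values measure the spread between them. The fits were tested on simulated data. The levels of 1 other gene are not reported here.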

Additional observations from a re-analysis of the deposited data

Results flagged for a closer look

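In groups of 4 to 10 libraries, the highest or lowest library was compared with its neighbour by Dixon's criterion, for the 10 members in 60 sets of libraries. The 10 sets past the criterion were all 10 members in female SCFA 3 dpl replicate 2 among the 5 libraries of its group, at 82589 CPM for *Cryaa*, 19895 CPM for *Cryab*, 32459 CPM for *Cryba1*, 14185 CPM for *Cryba2* and 15032 CPM for *Cryba4*. *Crybb1* was at 8386 CPM, *Crybb2* at 56114 CPM, *Crybb3* at 12307 CPM, *Crygs* at 28374 CPM and *Crygc* at 27973 CPM. The members were chosen on these values, so that passing the criterion is a description and no result. In the other sets, no library passed.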

How the results depend on the processing

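Counts of members called were 0 in all 11 comparisons and stayed at 0 in most settings. DESeq2 gave 2 in females at 7 dpl, the only comparison for which its share of all genes is given. With female SCFA 3 dpl replicate 2 included there were 6 over the mean of the 6 combinations and 4 in females at 3 dpl. With the lens genes as a covariate there was 1 over the mean and 1 between males and females (*Crygc* in both), and with *Crygb* and *Crygd* 1 in males at 14 dpl. Fits of the libraries that the study compared gave 1 in males at 7 dpl, 6 in males and 7 in females at 14 dpl. Leaving out each library in turn gave 0 to 6 over the mean and 0 in the other 10 comparisons. At least 10 counts in every library left only 2 members to test, and DESeq2 gave an adjusted p for 6 members between males and females. The count of members that follow the lens genes was 10 in every setting, with no share of all genes computed beside it. The median lens share was 0.00717% by γ-crystallins and 0.0174% without *Hsf4*.

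Sign changes of named log2 fold changes were these. *Cryaa* over the mean was -0.40 with *Crygb* and *Crygd* as a covariate, and 0.24 to 1.35 when libraries were left out. In females at 7 dpl it was -0.73 with that covariate. In females at 14 dpl it was 0.70 with the lens genes, 0.36 with *Crygb* and *Crygd* and 4.25 in the study's libraries, and -2.24 to 3.89 when libraries were left out. In males it was -0.25 at 3 dpl with *Crygb* and *Crygd* (-0.28 to 2.17 with libraries left out). At 7 dpl it was -0.23 with both covariates and -0.21 to 0.57 with libraries left out. At 14 dpl it was 0.074 with the lens genes. *Cryab* over the mean was 0.032 with the run of columns, 0.83 with female SCFA 3 dpl replicate 2 included, and -0.080 to 0.018 with libraries left out.

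With the replicate number as a block, 0 members were called in every comparison, *Cryaa* in males at 7 dpl was at -0.48 and *Cryab* over the mean at 0.00083. Same-numbered libraries of different groups were hardly more alike than others (mean r of their deviations 0.056 over 198 pairs, against -0.018 over 608), and the labels tie no replicate number to an animal or a day. The numbers go with the run of columns: all 12 libraries numbered 1 are in the first run, and all 7 numbered 4 or 5 are in the second. The block moved the number of all genes called from 299 to 651 in males at 7 dpl and from 63 to 183 in males at 14 dpl. The causes of these shifts were not tested.

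Low counts limit *Crygc* and *Cryba2*, with 3 counts or fewer in 10 and 7 libraries. The spread of the members within groups limits every comparison of SCFA, and fits of 1 sex and day alone used another estimate of it. The number of all genes called in females at 7 dpl was 0 by edgeR and 31 by DESeq2, and at 14 dpl 63 in males and 0 in females, against 350 and 651 in the libraries that the study compared.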
